A study of Mus musculus with 6 samples.

Results

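The abundant structural noncoding RNAs described here are 8 genes of the 24421 in the count table: Rn45s, Malat1, Neat1, Rmrp, Rpph1, Rprl1, Rprl2 and Rprl3. They were listed by name because they take a large and uneven part of the reads, and the quantity asked of them was the percent of all reads in each library and the effect of leaving them out of the library totals. The genes were thus chosen by their reads in these same libraries, and their shares and the differences between libraries are given as a description with no test. All 8 were in the table, and 5 of them (Rn45s, Malat1, Neat1, Rmrp and Rpph1) had reads in every library. The study asked what the histone H3K79 methyltransferase Dot1l does in blood endothelial cells (BECs) and lymphatic endothelial cells (LECs), with RNA-seq of 6 mouse libraries, 1 for each group. Cont BECs (Tie2-Cre(-); Dot1l 2f/2f) and cKO BECs (Tie2-Cre(+); Dot1l 2f/2f) were sorted as F4/80-, CD45- and Lyve1- cells from skin at E15.5, the floxed alleles being present in both, and the RNA of 2 to 3 embryos was pooled for each library. A figure legend of the study also lists CD31+ for these BECs, a step its methods text does not describe. The Tie2-Cre driver is active in endothelium and also in blood cells. The cultured libraries came from an embryonic yolk sac BEC line (CRL-2581) and from embryonic dermal LECs (C57-6064L). Each was transduced either with empty lentivirus (Cont) or with a lentivirus carrying dCas9-VP64 and guides to the Dot1l promoter (OE-BECs and OE-LECs). GFP+ cells of 2 to 3 flasks were sorted for each library.

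Rn45s is the long precursor that RNA polymerase I makes from the ribosomal DNA repeats and from which ribosomal RNA is cut. Malat1 is a nuclear long noncoding RNA of the nuclear speckles, where splicing factors gather, and its neighbour Neat1 is the RNA on which paraspeckles are built. Rpph1 is the RNA subunit of RNase P, the enzyme that trims the leader of precursor tRNAs, and Rmrp is the RNA subunit of the related RNase MRP, which takes part in ribosomal RNA processing. Both are made by RNA polymerase III, and Rprl1, Rprl2 and Rprl3 are copies of the RNase P RNA gene elsewhere in the genome.

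Rpph1 and its copies are shown first, because the reads counted on the Rprl genes are read below against those on Rpph1. The sequences are those of the GENCODE M21 transcripts on GRCm38 (mm10), written as the transcript reads. Capitals in Rpph1 (bases 1 to 257, chr14:50807511-50807767, minus strand) mark the second copy of a tandem repeat of 21 bases, at bases 203 to 223. Capitals in Rprl1 (chr6:69326935-69327170, minus strand), Rprl2 (chr3:22251374-22251609, plus strand) and Rprl3 (chr8:3803123-3803358, minus strand), each shown for the 236 bases that align with Rpph1, mark bases that differ from it.
Rpph1: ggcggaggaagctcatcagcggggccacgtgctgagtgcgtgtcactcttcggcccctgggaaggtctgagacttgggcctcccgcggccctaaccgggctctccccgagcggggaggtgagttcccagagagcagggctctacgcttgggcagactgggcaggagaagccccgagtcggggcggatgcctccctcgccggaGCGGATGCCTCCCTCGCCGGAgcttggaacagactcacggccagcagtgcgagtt
Rprl1: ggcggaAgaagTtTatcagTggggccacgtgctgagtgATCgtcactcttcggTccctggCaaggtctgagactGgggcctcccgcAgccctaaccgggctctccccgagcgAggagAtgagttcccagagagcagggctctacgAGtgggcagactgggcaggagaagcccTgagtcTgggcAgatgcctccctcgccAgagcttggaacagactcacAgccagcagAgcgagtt
Rprl2: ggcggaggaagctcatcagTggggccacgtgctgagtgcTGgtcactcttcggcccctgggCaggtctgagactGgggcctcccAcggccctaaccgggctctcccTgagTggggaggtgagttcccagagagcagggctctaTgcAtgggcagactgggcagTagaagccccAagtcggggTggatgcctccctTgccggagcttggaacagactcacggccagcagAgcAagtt
Rprl3: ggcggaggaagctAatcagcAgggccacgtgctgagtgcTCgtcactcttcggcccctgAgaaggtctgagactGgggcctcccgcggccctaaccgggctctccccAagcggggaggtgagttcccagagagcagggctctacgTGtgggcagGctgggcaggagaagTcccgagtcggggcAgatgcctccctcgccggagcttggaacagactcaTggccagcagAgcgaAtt
All 3 copies lack the second copy of the repeat. Over the 236 aligned bases Rprl1 differed from Rpph1 at 21 bases (91.1% identity), Rprl2 at 16 (93.2%) and Rprl3 at 15 (93.6%). The longest run shared with Rpph1 was 27, 32 and 37 bases, so no stretch of 50 bases of Rpph1 occurs in any copy. Among themselves the copies differed at 22 to 27 of the aligned bases. Over their whole transcripts Rprl2 and Rprl3 shared a run of 56 bases. That run is not within the bases shown, but starts at their end and goes on into the 54 bases that follow. A read inside a shared run fits more than 1 transcript. The sources used here do not give how reads with several positions were counted, so the division of reads among these 4 genes is uncertain.

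Rmrp is shown because it is the sister RNA of Rpph1 and moved with it across the libraries. It lies on the minus strand at chr4:43492788-43493058 (GRCm38), and capitals mark the longest run it shares with Rpph1, 9 bases.
Rmrp: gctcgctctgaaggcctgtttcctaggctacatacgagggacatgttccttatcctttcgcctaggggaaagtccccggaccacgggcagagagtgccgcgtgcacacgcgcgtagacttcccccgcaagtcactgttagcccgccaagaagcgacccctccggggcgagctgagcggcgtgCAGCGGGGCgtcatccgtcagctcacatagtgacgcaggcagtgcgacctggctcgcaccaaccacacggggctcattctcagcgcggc
The gene overlaps the annotated gene Ccdc107 on the opposite strand, and Rpph1 (chr14:50807447-50807771) lies beside Parp2, also on the opposite strand.

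Malat1 and Neat1 are shown near their ends because both carry U-rich stretches before a tract rich in A there, the element known to fold into a triple helix that protects the end of the RNA. Bases 6598 to 6701 of the 6983 of Malat1 (chr19:5795972-5796075) and bases 20672 to 20771 of the 20771 of the long Neat1 transcript (chr19:5824708-5824807) are given, both on the minus strand of GRCm38, and capitals mark the 3 runs of at least 10 bases that the last 500 bases of both transcripts share.
Malat1: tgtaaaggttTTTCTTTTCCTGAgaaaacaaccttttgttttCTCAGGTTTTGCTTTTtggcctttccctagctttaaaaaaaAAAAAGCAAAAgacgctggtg
Neat1: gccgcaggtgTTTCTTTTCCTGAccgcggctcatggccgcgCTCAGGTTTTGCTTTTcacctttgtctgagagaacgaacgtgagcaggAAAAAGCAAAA
The shared runs TTTCTTTTCCTGA, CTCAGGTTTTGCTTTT and AAAAAGCAAAA came in the same order in both. Taken from Malat1 and Neat1, they were then searched on the transcript strand of 141767 GENCODE M21 transcripts, and each alone was in 0.0247%, 0.00141% and 0.436% of them. All 3 in order, with gaps of at most 60 bases, were in 2 transcripts, the same 2. The match is a description of letters. Rn45s has no entry in the annotation and sequence tables used here, so neither its position nor a level per length is given.

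The libraries held 8863349 to 31032461 reads on genes, and 3 reads, used as the floor of a library, corresponded to 0.338 to 0.0967 reads per 1000000 reads of the library (CPM). All 6 endothelial markers were above the floor in every library. Prox1, the defining lymphatic transcription factor, had 0 reads in all 4 cultured libraries, including those labelled LEC, and so had Pdpn in both of those. Of the same list of 4 lymphatic markers, Lyve1 stood at 1998 and 1962 CPM in Cont LECs and OE-LECs, against 604 and 1061 CPM in the cultured BEC libraries, and Flt4 at 107 and 130 CPM against 144 and 98.3 CPM. In skin, where cells were sorted as Lyve1-, Lyve1 stood at 1027 CPM in the control and 1801 CPM in the library labelled as knockout. In skin the summed macrophage markers stood at 866 CPM in Cont BECs and 1246 CPM in cKO BECs, against 33.4 to 93.7 CPM in culture. The cKO library held 944 Dot1l reads against 762 in its control (log2 ratio -0.07, 95% interval -0.21 to 0.07), and since a count over the whole gene cannot show the floxed exons on their own, it is called here the cKO-labelled library. In culture Dot1l was higher in OE-BECs (4208 reads against 1972, log2 ratio 1.48) and OE-LECs (6720 against 2490, 1.20), both under the 3-fold rule used below. As its own check of the knockout and the overexpression, the study reported RT-qPCR of Dot1l, which is not part of these counts.

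The members together took from 0.127% to 12.9% of the reads, a range that followed the source of the cells. In Cont BECs of skin they took 2.56% of all reads (exact binomial 95% interval, 2.55 to 2.57), and in the cKO-labelled library 2.50% (2.49 to 2.51). In cultured Cont BECs they took 9.17% (9.16 to 9.18), and in OE-BECs 12.9% (12.9 to 13.0). For Cont LECs the share was 0.131% (0.129 to 0.132) and for OE-LECs 0.127% (0.126 to 0.129). The cultured BEC libraries were thus highest, the libraries labelled LEC lowest and the skin libraries between them. Intervals cover counting error only, since without molecular identifiers several PCR reads may stand for the same molecule and are not independent. With 1 library a group, no interval covers the spread between cultures or embryos. Fewer cells of a type and less of an RNA per cell cannot be told apart in these bulk libraries.

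**Figure D1:**
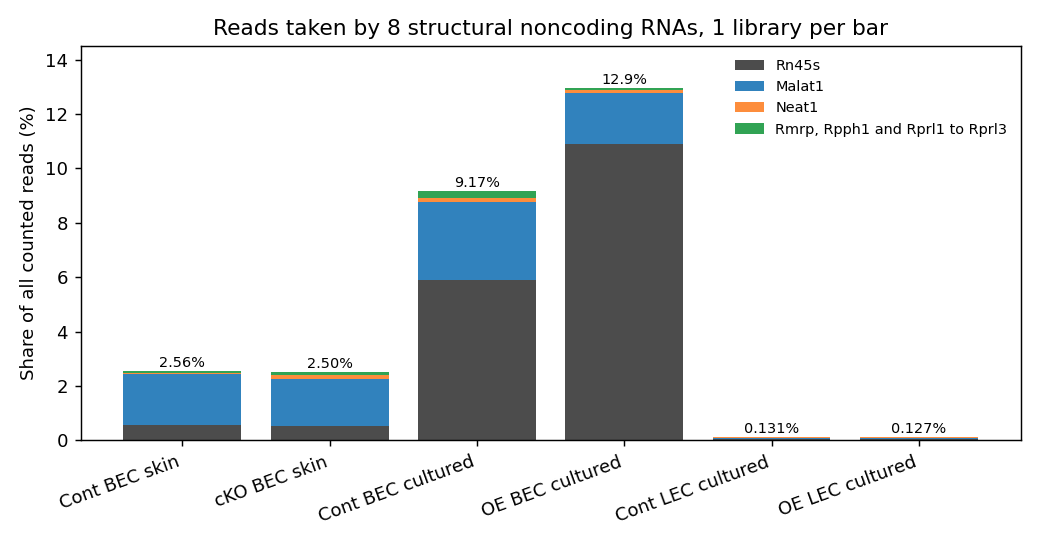
Percent of all counted reads (linear axis from 0) taken by Rn45s, Malat1, Neat1 and the summed Rmrp, Rpph1 and Rprl genes, stacked in 1 bar for each of the 6 libraries. The bars reach 2.56% and 2.50% in skin, 9.17% and 12.9% in cultured BECs and 0.131% and 0.127% in LECs, and Rn45s fills most of the cultured BEC bars while Malat1 fills most of the skin bars.

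Rn45s and Malat1 made up most of the member reads everywhere, in proportions that differed between the sources. Rn45s gave 22.3% and 20.7% of the member reads in Cont and cKO-labelled skin BECs, and Malat1 gave 72.8% and 69.9%. In cultured Cont BECs and OE-BECs the order was the other way, with 64.4% and 84.1% from Rn45s and 31.1% and 14.6% from Malat1. In the libraries labelled LEC, Rn45s gave 40.8% and 49.6% and Malat1 31.7% and 30.3%, and Neat1 made up most of the remainder. Without Rn45s the members took 1.99%, 1.98%, 3.26%, 2.05%, 0.0774% and 0.0642% of all reads, in the order of skin Cont and cKO, cultured BEC Cont and OE, and LEC Cont and OE. The excess of OE-BECs over their control in the total was thus an excess of Rn45s, since the remaining members took a smaller share there than in the control.

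A count on Rn45s does not separate the precursor from the ribosomal RNA cut from it. Rn45s had 50493 reads in Cont skin BECs and 57335 in the cKO-labelled library, which were 0.570% and 0.517% of all reads. It had 1044986 reads in cultured Cont BECs and 1516870 in OE-BECs, or 5.91% and 10.9%, and was the gene with the most reads in both. In Cont LECs and OE-LECs it had 13942 and 19612 reads, or 0.0534% and 0.0632%, and ranked 247 and 190 among all genes. Its share thus separated the 3 sources of cells, and within each source the libraries lay close to each other beside that span. The protein-coding gene Eef1a1 headed the libraries labelled LEC with 0.898% and 0.799% of their reads.

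Malat1 was the gene with the most reads in both skin libraries, with 164834 reads in Cont BECs (1.86%) and 193602 in the cKO-labelled library (1.75%). It was second to Rn45s in cultured BECs, where Cont BECs had 503660 reads (2.85%) and OE-BECs 263680 (1.89%). In Cont LECs and OE-LECs it had 10811 and 11998 reads, 0.0414% and 0.0387%, and ranked 373 and 421. Its share thus lay between 1.75% and 2.85% in all 4 BEC libraries, and both libraries labelled LEC lay far under them.

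Of the 5 RNAs with reads in every library, Neat1, the paraspeckle RNA, varied least between the sources and most between the skin libraries. It had 4448 reads in Cont skin BECs (502 CPM) and 16713 in the cKO-labelled library (1508 CPM). It had 25323 reads in cultured Cont BECs (1432 CPM) and 13087 in OE-BECs (939 CPM), and 9387 and 7915 in Cont LECs and OE-LECs (359 and 255 CPM). The cKO-labelled library was the highest and OE-LECs the lowest. The reads of Malat1 per read of Neat1 were 37.1 and 11.6 in Cont and cKO-labelled skin BECs, 19.9 (19.6 to 20.1) in cultured Cont BECs, 20.1 (19.8 to 20.5) in OE-BECs, and 1.15 and 1.52 in Cont LECs and OE-LECs. The counting intervals of the cultured BEC libraries overlapped, and the skin pair differed through Neat1.

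Rmrp and Rpph1 were abundant in 4 libraries and nearly absent from the libraries labelled LEC. Rmrp had 1914 and 2753 reads in Cont and cKO-labelled skin BECs (216 and 248 CPM), 11030 in cultured Cont BECs (624 CPM), 3217 in OE-BECs (231 CPM), and 11 and 5 reads in Cont LECs and OE-LECs. Rpph1 had 4603 and 6552 reads in skin (519 and 591 CPM), 35700 in cultured Cont BECs (2019 CPM), 5573 in OE-BECs (400.0 CPM), and 3 and 6 reads in Cont LECs and OE-LECs. For both RNAs cultured Cont BECs were the highest library. There were 2.40 Rpph1 reads per Rmrp read (2.28 to 2.54) in Cont skin BECs, 2.38 (2.28 to 2.49) in the cKO-labelled library, 3.24 (3.17 to 3.31) in cultured Cont BECs and 1.73 (1.66 to 1.81) in OE-BECs. The skin libraries did not differ in this ratio beyond counting error, and the cultured BEC libraries did.

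The RNase P RNA copies had few reads. Rprl1 had 6 reads in Cont skin BECs, 13 in cultured Cont BECs and 0 in the other 4 libraries. Rprl2 had 124 reads in Cont skin BECs, 178 in cultured Cont BECs and 32 in OE-BECs, and Rprl3 had 119, 690 and 134 in these libraries. Both had 0 reads in the cKO-labelled library and in both libraries labelled LEC.

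Reads on the copies were 5.13% (4.53 to 5.79) of the reads on Rpph1 and copies together in Cont skin BECs, 2.41% (2.25 to 2.57) in cultured Cont BECs and 2.89% (2.47 to 3.36) in OE-BECs. In the cKO-labelled library they were 0 against 6552 on Rpph1, where the floor of 3 reads corresponds to a share of up to 0.0458% and the exact 95% interval reaches 0.0563%, although Rpph1 itself had more reads there than in Cont skin BECs. Rprl3 had 0.960 reads per Rprl2 read (0.740 to 1.24) in Cont skin BECs, 3.88 (3.28 to 4.60) in cultured Cont BECs and 4.19 (2.83 to 6.37) in OE-BECs. With the sequences above, each copy has bases of its own in many positions, and whether a read on a copy came from Rpph1 was not tested.

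**Figure D2:**
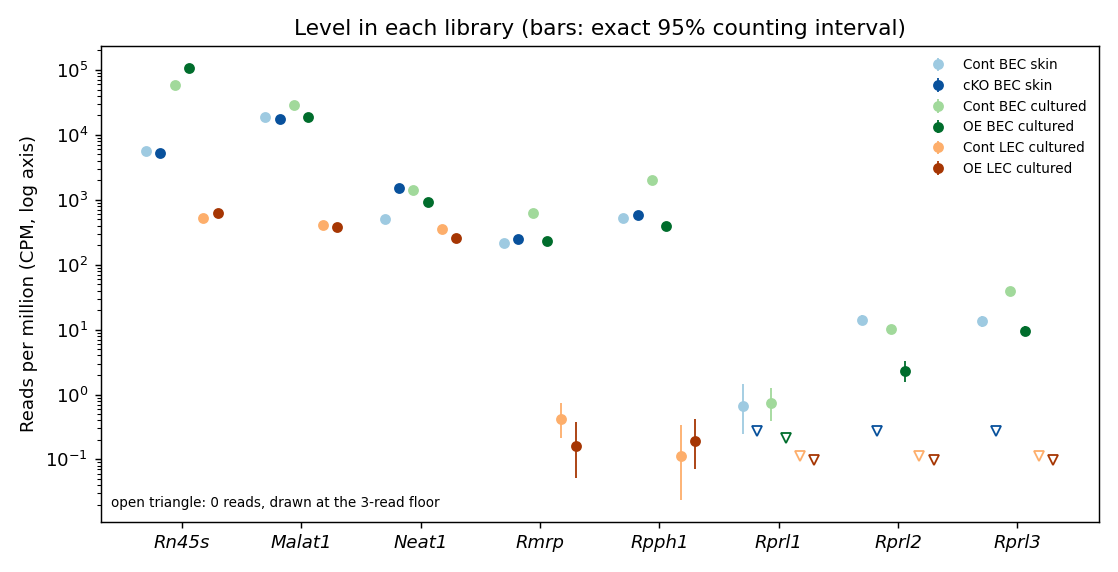
CPM (log axis) of each of the 8 noncoding RNAs, 1 point for each of the 6 libraries, with bars for the exact 95% counting interval and open triangles for 0 reads, drawn at the floor of 3 reads. The libraries labelled LEC lie lowest for Malat1, Rn45s, Neat1, Rmrp and Rpph1, with Rpph1 at 3 and 6 reads against 35700 in cultured Cont BECs.

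Per length, the order of the RNAs also differed between sources. In Cont skin BECs Malat1 stood at 2663 CPM per kb, Rpph1 at 1598, Rmrp at 785 and Neat1 at 24.2 CPM per kb. In cultured Cont BECs Rpph1 led with 6211 CPM per kb, ahead of Malat1 at 4078, Rmrp at 2268 and Neat1 at 68.9. In Cont LECs Malat1 stood at 59.3 CPM per kb and Neat1 at 17.3, while Rmrp and Rpph1 were at 1.53 and 0.353. The value of Neat1 uses its long form of 20773 bases, and a short form that ends early would stand higher per length.

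The following comparisons take the study's own rule, under which a gene is called when the higher of its normalized counts is at least 5 (3 for the cultured pairs) and more than 3 times the lower. Counts were scaled by the median of ratios within each pair, and the intervals of log2 ratios cover counting error only. Since these contrasts were in view when the RNAs were chosen, each share of called members is given beside that of all genes and nothing is read from it.

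Between the skin libraries, the question was what loss of Dot1l in BECs changes. The 3 Rprl genes were called lower in the cKO-labelled library, out of 8 members, beside 6.46% of the 18784 genes with reads called in either direction, 2.05% lower and 4.4% higher. The fold against 0 reads was at least 2.60 for Rprl1, 53.7 for Rprl2 and 51.5 for Rprl3, so the bound of Rprl1 does not reach 3. Rn45s had a log2 ratio of -0.19 (-0.21 to -0.18), Malat1 -0.15 (-0.16 to -0.14), Rmrp 0.15 (0.06 to 0.23) and Rpph1 0.13 (0.08 to 0.19). None of those 4 came near the rule. Neat1 had a log2 ratio of 1.53 (1.48 to 1.58), a fold of 2.89 that stayed under the rule, and it passed when counts were scaled to totals (1.59). With the reads of Rpph1 and the Rprl genes summed as 1 gene, 0 members were called. The summed markers of several cell types also differed in this pair. In the cKO-labelled library the macrophage list stood at 1246 against 866 CPM, the lymphatic list at 2159 against 1487 and the keratinocyte list at 105 against 65.6, while the endothelial list stood at 3264 against 5489 and the fibroblast and pericyte list at 541 against 727 CPM. Not all markers moved with the sum of their list. Of the lymphatic markers, Lyve1 (1027 to 1801 CPM) and Pdpn (18.8 to 41.2) were higher, while Prox1 (147 to 79.7) and Flt4 (294 to 237) were lower. Krt14 was lower (20.3 to 16.8 CPM) and Pdgfra higher (35.2 to 46.0), against the sums of their lists. The part of these markers and their cell types in the Neat1 value was not tested.

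In cultured BECs with raised Dot1l, the RNase P RNA and its copies were the members past the rule. Rpph1 fell with a log2 ratio of -2.30 (-2.34 to -2.26), 4.91-fold lower in OE-BECs than in Cont BECs. Rprl2 fell by 2.09 (log2 ratio interval -2.68 to -1.54), Rprl3 fell by 1.98 (-2.26 to -1.71), and Rprl1 was at least 3.32-fold lower. These 4 of 8 members stood beside 11.7% of the 16820 genes called in either direction, 4.63% lower and 7.05% higher. Rmrp, the RNase MRP RNA, had a log2 ratio of -1.39 (-1.45 to -1.34), a fold of 2.63 under the rule. Malat1 and Neat1 had log2 ratios of -0.55 (-0.56 to -0.54) and -0.57 (-0.60 to -0.54). Rn45s alone was higher in OE-BECs, with a log2 ratio of 0.92 (0.92 to 0.92), 1.89-fold, which did not reach the rule. By an edgeR exact test with an assumed coefficient of variation of 0.4, 0 of the 8 were past an adjusted p of 0.05. With Rpph1 and copies summed, the summed gene was the 1 called.

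In cultured LECs with raised Dot1l, 0 of 8 members were called by the fold rule and 0 by the edgeR exact test with the assumed variation, beside 4.18% of 16160 genes called in either direction, 1.79% lower and 2.38% higher, by the fold rule. Rn45s had a log2 ratio of 0.26 (0.23 to 0.29), Malat1 -0.08 (-0.12 to -0.04) and Neat1 -0.48 (-0.52 to -0.43). Rmrp (11 and 5 reads) and Rpph1 (3 and 6 reads) had intervals from -3.24 to 0.27 and from -1.46 to 3.40, so no difference was detectable in either with so few reads. The 3 Rprl genes had 0 reads in both libraries and no fold. Rn45s was above its control and Neat1 below it in both OE comparisons, and the difference between the comparisons was not tested.

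**Figure D3:**
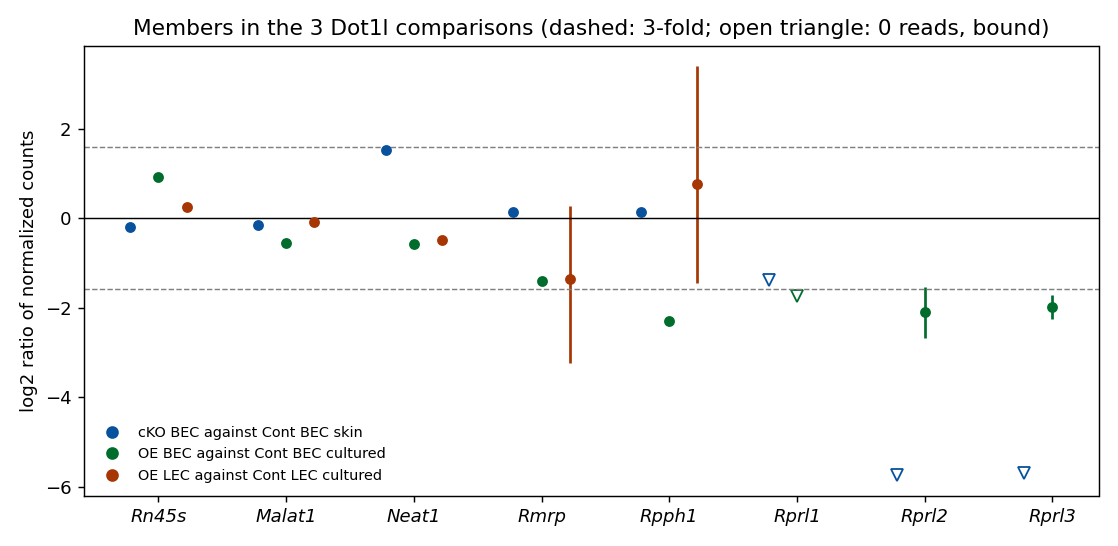
Log2 ratio of normalized counts of each noncoding RNA in the 3 Dot1l comparisons, with bars for the 95% counting interval, dashed lines at 3-fold and open triangles where 0 reads were set at the floor of 3 reads. Rpph1 lies at -2.30 in OE-BECs, Neat1 at 1.53 in the cKO-labelled library just under the dashed line, and Rn45s at 0.92 in OE-BECs and 0.26 in OE-LECs.

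The controls with empty lentivirus were compared next. All 8 members were called higher in cultured Cont BECs than in Cont LECs, beside 15.3% of 16219 genes called in either direction, 11.6% higher and 3.66% lower. Rn45s had a log2 ratio of 6.89 (6.87 to 6.92), 119-fold, and Malat1 6.21 (6.18 to 6.24), 73.9-fold. Neat1 had the smallest ratio, 2.10 (2.06 to 2.13), 4.28-fold. Rmrp had a log2 ratio of 10.64 (9.80 to 11.64), and Rpph1, with 3 reads in LECs, 14.21 (12.66 to 16.48). Rprl1, Rprl2 and Rprl3 were at least 6.88-fold, 94.2-fold and 365-fold higher. The cell line, its medium and its culture differ together with the cell type, and these cannot be told apart.

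Between the control BECs of skin and of culture, 5 members were called lower in skin, beside 31.7% of 18439 genes called in either direction, 9.37% lower and 22.4% higher. Rn45s had a log2 ratio of -3.61 (-3.63 to -3.60), 12.2-fold lower, and Rpph1 -2.20 (-2.24 to -2.15), 4.59-fold lower. Rmrp, Neat1 and Rprl3 were called with log2 ratios of -1.77, -1.75 and -1.78. Malat1 (-0.85), Rprl1 (-0.36, interval -2.04 to 1.14) and Rprl2 (0.24, -0.11 to 0.57) were not called. Scaled to plain totals, 2 members passed, and 5 passed with totals without the members, with TMM and with size factors from all 6 libraries. By the edgeR exact test, a different rule, 1 passed.

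The genes for proteins that make or work with these RNAs were read from lists, by their RNA counts, and no protein was measured. In the 3 Dot1l comparisons, 0 genes of the RNase P and RNase MRP proteins (11 genes), paraspeckle proteins (10), nuclear speckle proteins (10), RNA polymerase I and its factors (15), ribosome assembly (15) and RNA polymerase III and its factors (18) were called in either direction. Of all genes, 6.46%, 11.7% and 4.18% were called in the skin, OE-BEC and OE-LEC comparisons. In OE-BECs, where Rpph1 and Rmrp were lower, the RNase P and MRP proteins had a median log2 ratio of -0.05, with 5 genes above and 6 below 0, against 0.02 for all genes. RNA polymerase III and its factors had a median of -0.07 with 8 above and 10 below 0. In the same library, where the Rn45s count was higher, ribosome assembly had a median of 0.46 with 15 of 15 genes above 0, and RNA polymerase I and its factors 0.19 with 14 of 15 above 0. Whether that count reflects the precursor or ribosomal RNA cut from it was not tested.

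Single genes of these lists, each under the rule, were Dkc1, the pseudouridine synthase of snoRNPs, at 0.92, Nop56, a core snoRNP protein, at 0.63, nucleolin (Ncl) at 0.43 and the polymerase I subunit Polr1a at 0.32. The genes of paraspeckle and nuclear speckle proteins had medians of 0.28 (9 of 10 above 0) and 0.25 (8 of 10) in OE-BECs, where Neat1 and Malat1 were lower. In OE-LECs ribosome assembly had a median of 0.13 (15 of 15 above 0) and RNase P and MRP proteins 0.14 (11 of 11), and in the cKO-labelled library they had -0.02 (6 of 15) and 0.08 (6 of 11), against 0.01 for all genes in both pairs. The paraspeckle and nuclear speckle proteins had medians of -0.06 and -0.06 in OE-LECs and of -0.10 and -0.00 in the cKO-labelled library. For the factors of RNA polymerase I and III the medians were 0.07 and -0.03 in OE-LECs and 0.05 and -0.03 in the cKO-labelled library.

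Other structural RNAs gave few reads. Of 26 listed, 7 were in the table and 5 had reads. Terc, the RNA of telomerase, had 8, 29, 22, 16, 3 and 3 reads in the 6 libraries in the order used above, and the vault RNA Vaultrc5 had 2, 3, 88, 24, 1 and 2. Terc, Vaultrc5, Rnu11 and Rnu12, the last 2 being RNAs of the minor spliceosome, were called higher in cultured Cont BECs than in Cont LECs, 4 of the 5, beside 11.6% of all genes. Rnu12 passed on 5 reads against 0, too few for its fold against the floor to reach 3. In the Dot1l comparisons 0 of these were called, beside 6.46% (skin), 11.7% (OE-BECs) and 4.18% (OE-LECs) of all genes. Among 14 of 16 listed long noncoding RNAs in the table, Airn, the imprinted antisense RNA of Igf2r, was the 1 gene called in the Dot1l comparisons (4 reads in OE-BECs against 31 in their control, log2 ratio -2.57, -4.53 to -1.07). Without stated use of strand, reads of an antisense RNA and its partner cannot be told apart.

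The genes of the RNase P and MRP proteins, by their RNA counts, did not follow Rpph1 between the cultured controls. Rpp40, which encodes a protein subunit of RNase P, was the 1 gene of 11 past the rule, beside 3.66% of all genes called lower and 11.6% higher. It had 51 reads in cultured Cont BECs and 271 in Cont LECs (log2 ratio -1.74), where Rpph1 was higher in BECs. The median of the 11 was -0.64, with 10 below 0, against 0.03 for all genes. Among the listed long noncoding RNAs, Kcnq1ot1, the imprinted antisense RNA of Kcnq1, was higher in BECs (934 reads against 17), and H19 passed the rule on 3 reads against 1, both at or under the floor. Between skin and culture, Cd3eap and Taf1c of the RNA polymerase I factors, Nop14 of ribosome assembly and Polr3gl of RNA polymerase III were called lower in skin, as was Vaultrc5, with log2 ratios of -2.41, -1.71, -1.64, -2.09 and -4.70. Of all genes, 9.37% were called lower in skin in that pair. Higher in skin were Rnu11, Rnu12 and 7 of the 14 long noncoding RNAs, beside 22.4% of all genes, led by H19 (60360 reads against 3), Kcnq1ot1 (6846 against 934), Meg3 (1379 against 1) and Mir17hg (448 against 43).

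The Hist1h and Scarna genes were also low in the libraries labelled LEC, and their values are given beside the members. The 54 Hist1h genes, whose messages end without a poly(A) tail, summed to 2308 and 4610 CPM in Cont and cKO-labelled skin BECs, 2368 CPM in cultured Cont BECs and 2966 CPM in OE-BECs, whereas Cont LECs had 2.99 and OE-LECs 3.77 CPM. The 9 Scarna genes, small RNAs of Cajal bodies, summed to 93.4, 82.6, 206 and 171 CPM in the skin and cultured BEC libraries and to 0.574 and 0.580 CPM in LECs. The members Rmrp, Rpph1 and the Rprl genes summed to 763, 839, 2692, 643, 0.536 and 0.354 CPM in the same order. These 3 classes thus shared the split between the libraries labelled LEC and the rest.

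The sums of the Snord and of the Snora genes did not share that split, though single genes could. Snord17 stood at 0.115 and 0.322 CPM in Cont LECs and OE-LECs, against 10.6 to 63.4 CPM in the skin and cultured BEC libraries. The 74 Snord genes summed to 503 and 749 CPM in cultured Cont BECs and OE-BECs, and to between 55.1 and 70.9 CPM in the other 4 libraries, LECs included. The 36 Snora genes summed to between 41.2 and 75.4 CPM in all 6. The spliced and polyadenylated noncoding RNAs Gas5, Tug1 and Snhg of the list (6 genes) summed to 641 and 636 CPM in skin, 296 and 370.2 in cultured BECs and 472 and 462 in LECs. How RNA was selected or depleted for each library is not given in the sources used here, and its part in the low values of the members in LECs was not tested. These classes were chosen after values had been seen.

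**Figure D4:**
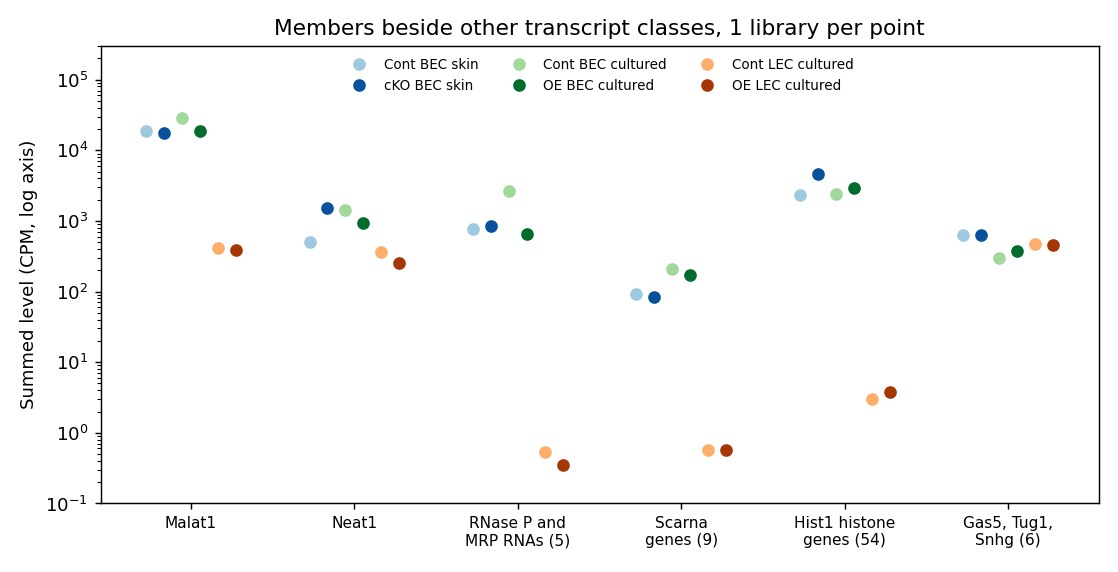
Summed CPM (log axis) of Malat1, Neat1, the RNase P and MRP RNAs, the Scarna genes, the Hist1h genes and the Gas5, Tug1 and Snhg genes, 1 point for each of the 6 libraries. The RNase P and MRP RNAs, Scarna and Hist1h sums reach at most 3.77 CPM in the libraries labelled LEC and at least 82.6 CPM in the others, while the Gas5, Tug1 and Snhg sums lie between 296 and 641 CPM in all 6.

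Leaving the members out of the totals changed the scale of every other gene by an amount that followed their share. The CPM of any other gene rose by 2.62% in Cont skin BECs, 2.56% in the cKO-labelled library, 10.1% in cultured Cont BECs, 14.9% in OE-BECs, and in the libraries labelled LEC it rose by 0.131% (Cont) and 0.128% (OE). In a comparison, what counts is the difference of these. The log2 ratio of every other gene moved by -0.000849 between the skin libraries, by 0.0611 in OE-BECs against Cont BECs and by -4.87e-05 in OE-LECs against Cont LECs. Between the cultured controls it moved by 0.137 and between skin and culture by -0.101. Rn45s left out alone moved OE-BECs against Cont BECs by 0.0784, more than all 8 together, since the remaining members were lower in OE-BECs.

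With median of ratios, the scaling of the study, the same step moved the log2 ratios by between -0.000722 and 0.000301 in the 5 pairs. Total-count scaling lay -0.04 on the log2 scale from the median of ratios in OE-BECs with the members and 0.02 without them. Between the cultured controls it lay at -0.10 with and 0.03 without, and between skin and culture at 0.24 and 0.14. In the skin pair it lay at 0.06 and 0.05, and in LECs at -0.02 and -0.02. Scaling to totals without the members was thus nearer to the median of ratios in the 3 pairs with a cultured BEC library.

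The number of other genes called by total-count scaling followed. In OE-BECs 1160 genes were called higher and 797 lower with the members in the totals, and 1196 and 771 without them, so that 36 genes were gained and 26 lost. The median of ratios called 1186 and 775. Between the skin libraries 848 were called higher and 352 lower, and in LECs 383 and 291, with and without the members. Between the cultured controls, leaving the members out gained 165 genes called higher in BECs (1748 to 1913) and lost 98 called lower (667 to 569). Between skin and culture it lost 137 called higher in skin (4473 to 4336) and gained 173 called lower (1349 to 1522).

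**Figure D5:**
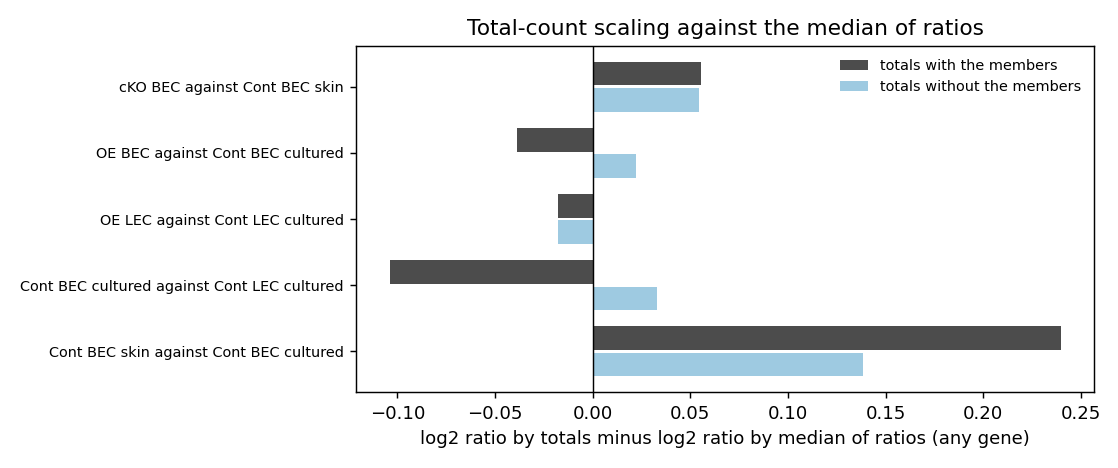
Log2 ratio of any gene by total-count scaling minus its log2 ratio by median of ratios (horizontal axis), with the 8 noncoding RNAs in the totals (dark bars) and left out of them (light bars), in the 5 comparisons. Leaving them out takes the value from -0.10 to 0.03 between the cultured controls and from 0.24 to 0.14 between skin and culture, and hardly moves it in the skin and LEC pairs.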

How the data were processed

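RNA of 6 libraries (ScriptSeq v2 kit, total RNA) was sequenced, 1 library per group. Per the study's methods, the authors trimmed reads with skewer 0.2.2, aligned them to mm10 with STAR 2.7.9a and counted them per gene with VERSE 0.1.5. The annotation and the treatment of reads with several positions are not given in the sources used here. The deposited values are raw counts of reads per gene.

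Groups follow the labels. Shares of reads have exact Clopper-Pearson 95% intervals. Ratios were computed on counts scaled by the median of ratios (DESeq2 1.42.0, R 4.3.3) within each pair, with exact intervals conditional on both counts. Calls needed a normalized count over 3 times that of the other library and of at least 5 (any pair with a skin library) or 3 (cultured pairs). A gene at 0 reads was set against 3 reads for its fold. With 1 library a group the fold rule is no test, and the edgeR exact test, run as an alternative, compares single libraries under a variation that was assumed and not measured. List medians use log2 values with 1 added to normalized counts. TMM factors and the exact test came from edgeR 4.0.16, the remaining steps from Python 3.11.15, and steps were tested on simulated data.

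Alternatives were other size factors, TMM, total counts with and without the members, a minimum of 20, a pseudocount of 1, an exact test with an assumed coefficient of variation of 0.4 and, chosen after seeing the data, the summed reads of Rpph1 and the Rprl genes. Genes named are all 8 members, Dot1l, the gene with the most reads in each library, up to 4 called genes of each list (Dkc1, Nop56, Ncl and Polr1a were named after their values were seen), and the 3 genes nearest to each member with at least 100 reads in every library. Members and lists were chosen with earlier results of these data known. Sequences come from GENCODE M21 transcripts and positions of whole genes from RefSeq on GRCm38.p6, which name 7 of the 8 members.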

Additional observations from a re-analysis of the deposited data

How the results depend on the processing

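No paired analysis was possible because each group has 1 library. The 30 log2 ratios of the members kept their direction under all 150 recomputed values. Their size was less stable, since 38 of the 150 lay outside the counting interval of the main value and 112 within it. Members called in the skin pair numbered 3, against 4 by total counts, 2 with a minimum of 20 normalized counts, and 0 with Rpph1 and the Rprl genes summed. In OE-BECs they numbered 4, 0 by the edgeR exact test and 1 when summed. Between the cultured controls they numbered 8, and 5 of the 5 remaining genes when summed. With a minimum of 20 the members called were 3 in OE-BECs and 7 between the cultured controls. Between skin and culture members called numbered 5, against 2 by total counts. The cause of that drop by total counts was not tested. The exact test assumes a variation these libraries cannot measure.

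Among genes with at least 10 reads in every library, the members left were Rn45s, Malat1 and Neat1. Their share of the reads on such genes was 2.67% in Cont skin BECs, 2.63% in the library labelled cKO, 9.01% in cultured Cont BECs and 13.0% in OE-BECs. With all genes counted but Rn45s out of the list and of the totals, the members' share was 1.998%, 1.99%, 3.46%, 2.30%, 0.0774% and 0.0642% in the 6 libraries, LECs last.

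The shift of the log2 ratio of every other gene on leaving out the members was, under TMM and under the median of ratios, -0.000196 and 0.000214 in the skin pair, -6.29e-05 and -0.000173 in OE-BECs, 0.00119 and 0.000301 between the cultured controls, and -0.000191 and -0.000722 between skin and culture. With Rn45s alone left out of totals it was 0.0784 in OE-BECs, 0.000142 in OE-LECs, 0.0871 between the cultured controls and -0.0796 between skin and culture. With a minimum of 20 normalized counts, other genes called by total counts fell from 1200 to 525 in the skin pair with and without the members, from 1957 to 490 with and from 1967 to 479 without them in OE-BECs, and from 674 to 159 in OE-LECs.

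Few reads limit Rmrp and Rpph1 in the libraries labelled LEC (3 to 11 reads), although these libraries had the largest totals. They also limit Rprl1 (at most 13 reads in any library), and no value here has a replicate check.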

Other observations

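The genes whose levels ran most like each abundant member over the 6 libraries were taken from 9707 genes with a mean of at least 10 CPM, by the root mean square difference of centred log2(CPM + 0.5). Nearest to Malat1 were the replication-dependent histone genes Hist1h4c (0.189), Hist1h4a (0.285) and Hist1h2bk (0.301), which had at most 0.0644 CPM in both libraries labelled LEC. The added 0.5 CPM sets how low such genes can go. Nearest to Rn45s were Snord17 (0.775), the histone gene Hist4h4 (0.862) and the small Cajal body RNA Scarna13 (0.982), all farther off than the neighbours of Malat1. Scarna13 stood at 153 CPM in cultured Cont BECs and at 118 CPM in OE-BECs, where Rn45s had the larger share. Nearest to Neat1 were Snx32 (0.336), Ptpn18 (0.361) and Hlx (0.416), and Ptpn18 stood at 30.1 CPM in Cont skin BECs and 63.4 CPM in the library labelled cKO. The points share libraries and depth, and the likeness is a description.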
